A study of Mus musculus with 12 samples.

Results

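Of the 12975 genes in the counts table, 8 genes were followed, chosen by name as receptors and adaptors through which cells sense interleukin-1 (IL-1), ligands of the tumour necrosis factor (TNF) family and ligands of Toll-like receptors (TLRs). The choice was made with earlier results of these data known. All 8 were present in the table. Il1r1 and Il1rap encode the signalling receptor for IL-1 and its co-receptor, Tlr2 and Tlr4 encode receptors for bacterial lipopeptides and for lipopolysaccharide, Myd88 encodes the adaptor shared by IL-1 receptors and most TLRs, Irak1 encodes a kinase recruited by Myd88, Tnfrsf1a encodes the broadly expressed TNF receptor TNFR1, and Tnfrsf12a encodes Fn14, the receptor for the TNF family ligand TWEAK.

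The data came from the small intestinal muscularis of 6 PLPCreERT2 Rpl22HA mice (B6J.129(Cg)-Rpl22tm1.1Psam/SjJ), all of which had received 2 intraperitoneal doses of tamoxifen at 10-12 weeks of age and were killed 3-4 weeks after the first dose. In these animals a tamoxifen-inducible Cre recombinase directed to enteric glial cells (EGCs) switches the ribosomal protein Rpl22 to an HA-tagged form, so ribosomes of EGCs, and of any other cell in which the Cre is active, can be pulled down with their mRNA. Tissue was naive (T0, animals 1, 2 and 4) or was taken 3 h after intestinal manipulation (T3, animals 1, 3 and 4), a surgical handling of the bowel that inflames its muscle layer. The numbers name different animals at T0 and T3. The homogenate of each animal was split between anti-HA antibody and a control IgG1, giving 4 groups of 3 libraries (HA T0, IgG T0, HA T3 and IgG T3). The IgG libraries hold RNA that binds without the tag, and so measure the background of whole muscularis in the same animal.

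IL-1 receptors and TLRs carry the same cytoplasmic signalling domain, the TIR domain, and bind Myd88, which assembles Irak kinases and leads to activation of NF-kB and MAP kinases. TNFR1 and Fn14 lack this domain and act through TRAF proteins, which lead to NF-kB by another route. Enteric glia are known to respond to IL-1 and to bacterial products, and Fn14 is known as a receptor that is low in resting tissue and rises after injury.

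Depth differed between the groups. HA libraries held 1221788 to 2870591 UMI counts, IgG T0 libraries 388214 to 1289833 and IgG T3 libraries 88136 to 248522. Values are given as CPM, counts scaled by the library total, and a count of 0 to 3 is treated as being at the floor, which amounted to between 1.05 and 34.0 CPM depending on depth. The 15 glial markers summed to 5067 to 6385 CPM in HA T0, 910 to 1038 CPM in IgG T0, 10930 to 11411 CPM in HA T3 and 905 to 2542 CPM in IgG T3. The sum in HA T3 was 1.89 times that in HA T0, which came from Cryab and Gfap, together at 1196 to 1546 CPM in HA T0 and 7152 to 7799 CPM in HA T3. The other 13 markers, a split made after their values were seen, summed to 3870 to 4839 CPM in HA T0, 237 to 374 CPM in IgG T0, 3200 to 3872 CPM in HA T3 and 205 to 1452 CPM in IgG T3, and HA T3 was at 0.796 times HA T0. Markers of interstitial cells of Cajal (4 genes) were also higher in HA, at 2816 to 3698 CPM in HA T0 against 398 to 569 CPM in IgG T0, and were at 1319 to 1722 CPM in HA T3 against 278 to 1225 CPM in IgG T3. Mesothelial markers (7 genes) went from 484 to 547 CPM in HA T0 to 53.5 to 56.1 CPM in HA T3. Macrophage markers (15 genes) summed to 680 to 1339 CPM in HA T0 and 410 to 701 CPM in HA T3. In IgG they summed to 1500 to 2019 CPM at T0 and 1055 to 1304 CPM at T3. Smooth muscle markers (13 genes) summed to 18278 to 27710 CPM in HA T0 and 59284 to 73687 CPM in IgG T0. At T3 they were at 14447 to 16885 CPM in HA and 45185 to 74054 CPM in IgG. Summed fibroblast, neuron, endothelial and epithelial markers were also lower in every HA T0 library than in every IgG T0 library. Of the 10 neutrophil and monocyte markers 4 were in the table, and they summed to 6.27 to 16.2 CPM in HA T0 and 22.1 to 116 CPM in HA T3. S100a8 and S100a9 made up the difference, while Ccr2 and Plac8 summed to 5.92 to 15.6 CPM in HA T0 and 0 to 7.01 CPM in HA T3. In these bulk libraries fewer cells of a type and less RNA per cell cannot be told apart.

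The genes lie on different chromosomes of the mouse genome (mm10, GENCODE M21 gene models), Il1r1 at chr1:40225080-40317257, Tlr2 at chr3:83836272-83841767, Tlr4 at chr4:66827584-66930284, Tnfrsf1a at chr6:125349362-125362484, Myd88 at chr9:119335934-119341411, Il1rap at chr16:26581704-26730117, Tnfrsf12a at chr17:23675445-23677468 and Irak1 at chrX:74013914-74023918. Counts came from a window at the 3′ end of each gene. In these gene models that window overlapped an exon of another gene only for Il1rap, where Gm20319 lies on the opposite strand, and the use of strand in counting was not stated, so reads of both could not be told apart there.

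RefSeq promoter windows of 300 bases (250 before and 50 after the annotated start, GRCm38.p6) were found for 7 of the 8 genes, 9 windows in all. Those of 3 genes that rose in the HA pull-down, Tlr2, Il1r1 (the downstream of 2 annotated starts) and Tnfrsf12a, are shown beside that of Irak1, which did not pass the test. Each is written 5′ to 3′ on the strand of the gene, and capitals mark the NF-kB motif, the AP-1 motif TGANTCA and the GC box GGGCGG, each searched on both strands.
Tlr2, chr3:83841559-83841858 (minus strand): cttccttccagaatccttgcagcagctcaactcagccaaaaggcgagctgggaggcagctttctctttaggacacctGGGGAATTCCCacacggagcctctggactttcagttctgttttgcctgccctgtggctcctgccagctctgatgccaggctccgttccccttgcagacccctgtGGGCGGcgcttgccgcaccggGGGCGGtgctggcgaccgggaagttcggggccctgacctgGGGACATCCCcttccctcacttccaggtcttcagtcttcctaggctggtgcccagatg
Il1r1, chr1:40266336-40266635 (plus strand): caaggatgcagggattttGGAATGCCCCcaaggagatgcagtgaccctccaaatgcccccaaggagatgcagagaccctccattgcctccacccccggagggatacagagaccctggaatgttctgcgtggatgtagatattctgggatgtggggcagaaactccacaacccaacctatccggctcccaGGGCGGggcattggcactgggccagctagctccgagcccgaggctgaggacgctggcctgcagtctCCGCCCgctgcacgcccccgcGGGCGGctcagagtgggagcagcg
Tnfrsf12a, chr17:23677400-23677699 (minus strand): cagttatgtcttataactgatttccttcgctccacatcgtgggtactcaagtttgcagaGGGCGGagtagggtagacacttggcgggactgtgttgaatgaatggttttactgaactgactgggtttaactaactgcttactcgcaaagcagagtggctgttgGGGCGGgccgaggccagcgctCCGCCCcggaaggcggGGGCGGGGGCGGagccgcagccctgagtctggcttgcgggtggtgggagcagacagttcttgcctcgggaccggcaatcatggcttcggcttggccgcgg
Irak1, chrX:74023872-74024171 (minus strand): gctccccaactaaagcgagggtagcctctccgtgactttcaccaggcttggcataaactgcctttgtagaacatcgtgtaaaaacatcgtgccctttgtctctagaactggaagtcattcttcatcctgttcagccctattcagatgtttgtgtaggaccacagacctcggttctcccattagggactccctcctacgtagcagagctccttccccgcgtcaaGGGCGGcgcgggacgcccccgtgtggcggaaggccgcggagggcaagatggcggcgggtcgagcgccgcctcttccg
The Tlr2 window held the NF-kB letters in overlapping matches from base -173 to -163 and in 1 match from base -8, counted from the annotated start at 0. The Il1r1 window held 1 NF-kB match, from base -232 on the opposite strand. NF-kB letters stood in 4.51% of the 32851 promoter windows in the reference, AP-1 letters in 7.81% and GC boxes in 35.7%. None of the 9 windows held the AP-1 letters, and the Tnfrsf12a window held 5 GC boxes. The NF-kB letters were thus in 2 of the 9 windows. They were absent from the windows of Il1rap, Myd88, Tnfrsf1a and Tnfrsf12a, which also rose, and from the upstream window of Il1r1. A match is a description of the letters and no evidence of binding.

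To ask which of these genes the glial pull-down enriched in naive muscularis, HA T0 was compared with IgG T0. Il1rap and Tnfrsf1a were higher in HA, and the other genes tested did not pass the threshold. These 2 of 7 tested genes compare with 16.0% of the 9823 genes tested that were higher in HA (adjusted p under 0.05 over all genes, edgeR quasi-likelihood test with Benjamini-Hochberg adjustment, here and below). Tlr4 was too low for the test. Of all genes tested, 14.4% were lower in HA and none of the 7 was among them. The median log2 fold change of the 7 genes was 0.21, against -0.02 over all genes tested. The test did not pair the HA and IgG libraries of an animal. A fit with the animal as replicate block, which pairs them, called the same 2 genes.

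Il1rap, without which the IL-1 receptor does not signal, was at 12.7, 10.1 and 15.3 CPM in HA T0 (animals 1, 2 and 4) and at 0, 1.71 and 3.88 CPM in IgG T0, on 0, 1 and 5 counts. All HA values lay above all IgG values, and 2 of the 3 IgG libraries were at the floor. The log2 fold change was 2.27 (SE 0.58, adjusted p = 0.00933), and the ratio of pooled CPM was 4.93 (95% interval for counting error 2.18 to 13.8). The size rested on the IgG T0 library of animal 4, without which the log2 fold change was 3.55 (SE 0.91, adjusted p = 0.0146), against 1 IgG count. Il1r1, the ligand-binding chain with which Il1rap pairs, was at 10.4, 12.9 and 11.1 CPM in HA T0 and 15.5, 17.1 and 8.53 CPM in IgG T0. The groups overlapped (log2 fold change -0.19, SE 0.41, adjusted p = 0.758), with a 95% interval (normal, from the SE) from -1.0 to 0.62.

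Tnfrsf1a was at 451, 507 and 554 CPM in HA T0 and at 196, 242 and 243 CPM in IgG T0. The groups did not overlap, and within each animal the HA level was 2.30, 2.10 and 2.28 times the IgG level. The log2 fold change was 1.12 (SE 0.18, adjusted p = 0.000475). Tnfrsf12a, in contrast, was at 155, 131 and 50.2 CPM in HA T0 and 139, 115 and 50.4 CPM in IgG T0. Its HA to IgG ratio lay at 1.12, 1.14 and 0.995 in the 3 animals, so the lower level of animal 4 was seen in both pull-downs (log2 fold change 0.19, SE 0.57, adjusted p = 0.834). With the animal as replicate block the log2 fold change was 0.09 (SE 0.20, adjusted p = 0.761).

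Tlr2 was at 13.4, 12.9 and 15.7 CPM in HA T0 and at 7.73, 8.57 and 10.1 CPM in IgG T0, on 3, 5 and 13 counts in the latter. The levels did not overlap, but the difference did not pass the test (log2 fold change 0.59, SE 0.39, adjusted p = 0.274). Tlr4 was at 4.61, 7.26 and 9.41 CPM in HA T0, on 12, 13 and 27 counts, and at 0, 0 and 4.65 CPM in IgG T0, on 0, 0 and 6 counts. With no filter on low counts the log2 fold change of Tlr4 was 1.56 with an adjusted p of 0.140. The 6 counts were all in the IgG T0 library of animal 4, and without it the call was made (adjusted p = 0.0339), with a fitted log2 fold change of 6.56 that, against a group at 0, depends on the prior count.

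The shared signalling genes did not pass the test between the pull-downs. Myd88 was at 26.9, 36.3 and 42.2 CPM in HA T0 and 33.5, 36.0 and 41.1 CPM in IgG T0 (log2 fold change -0.13, SE 0.27, adjusted p = 0.753). Irak1 was at 89.1, 97.2 and 117 CPM in HA T0 and 95.3, 77.1 and 84.5 CPM in IgG T0 (log2 fold change 0.21, SE 0.21, adjusted p = 0.470). The 95% intervals ran from -0.66 to 0.40 for Myd88 and from -0.20 to 0.62 for Irak1. Both groups overlapped for both genes.

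**Figure D1:**
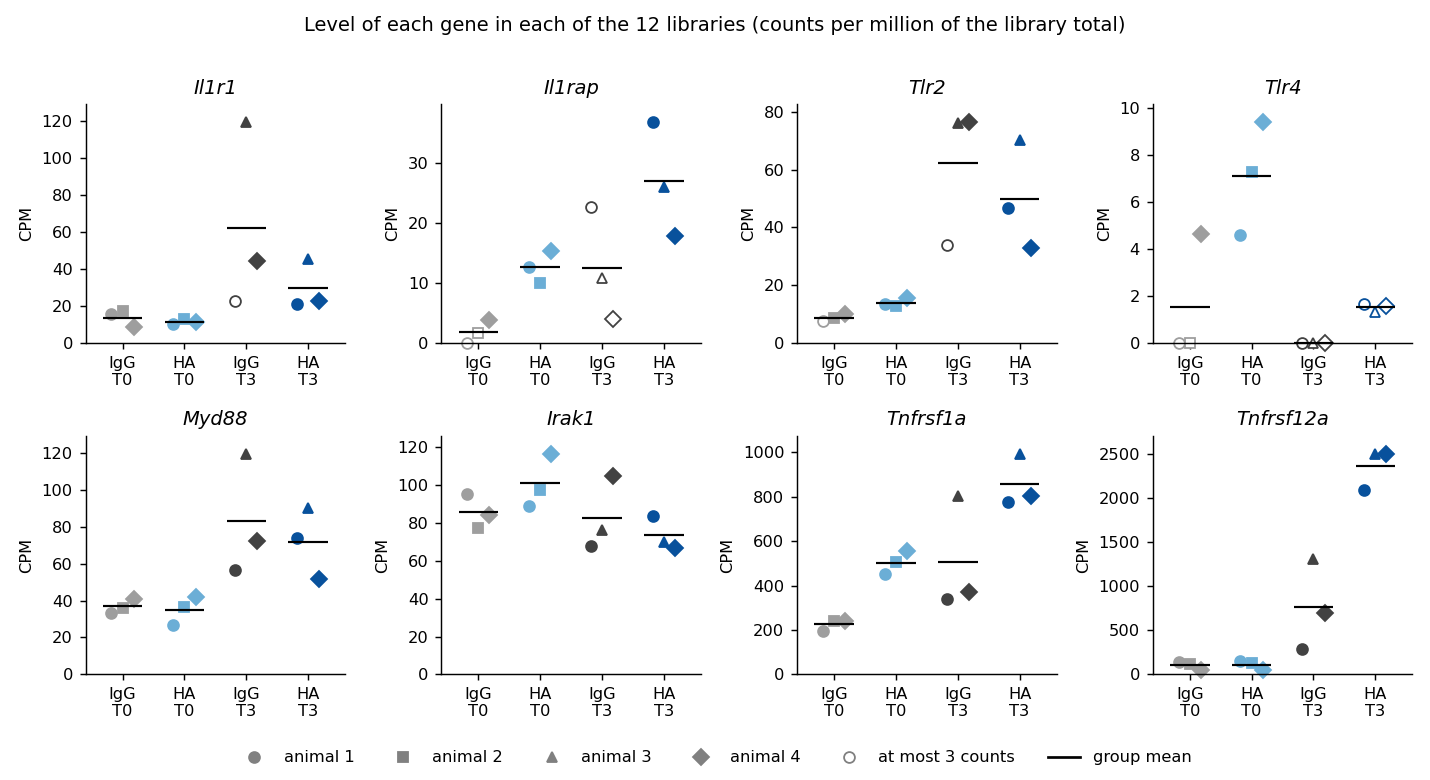
Level of the 8 genes in each of the 12 libraries, in CPM on a linear axis from 0, by pull-down and time; horizontal lines are group means of 3 libraries, open symbols are libraries with at most 3 counts, and symbol shapes give the animal number, which names different animals at T0 and T3. The 3 HA T3 values of Tnfrsf12a, 2100 to 2509 CPM, lie above all other libraries, while Tlr4 is at 2 counts in each HA T3 library.

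The next comparison asked how the genes changed in the glial pull-down within 3 h of manipulation (HA T3 against HA T0). Of the 7 genes tested, 6 rose, namely Tnfrsf12a, Tlr2, Il1r1, Il1rap, Myd88 and Tnfrsf1a, and Irak1 did not pass the test. Over all 9441 genes tested, 18.7% rose and 15.1% fell. The median log2 fold change was 1.33 over the 7 genes and -0.02 over all genes. In each of the 6 genes every HA T3 library lay above every HA T0 library, which held for 15.6% of all genes tested. All 6 calls held in each of the 13 alternative settings and leave-outs run. Among the 13 was a fit with the shared number as replicate block, although those numbers name different animals at T0 and T3. Fold changes here are on TMM scaling, a normalisation that sets the middle of the genes to no change, and CPM ratios are lower than fitted folds for genes that rose. Under scaling to library totals the median over all genes was -0.29, and the calls shifted from 1765 higher and 1422 lower to 1202 higher and 2660 lower.

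Tnfrsf12a changed most among the 7 genes tested. Its level went from 155, 131 and 50.2 CPM at T0 to 2100, 2502 and 2509 CPM in the HA T3 libraries of animals 1, 3 and 4, on 2566 to 3741 counts. The lowest T3 value was far above the highest T0 value, and the T3 values lay close together. The log2 fold change was 4.66 (SE 0.47, adjusted p = 0.000508), a fold of 25.2, and 48 of the 9441 genes tested had a larger one.

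Tlr2 went from 12.9 to 15.7 CPM in the 3 HA T0 libraries to 46.7, 70.2 and 32.7 CPM in HA T3, a log2 fold change of 2.10 (SE 0.28, adjusted p = 7.70e-06). Tlr4 went the other way, from 12, 13 and 27 counts (4.61 to 9.41 CPM) to 2 counts in each HA T3 library (1.64, 1.34 and 1.56 CPM), all at the floor. The ratio of pooled CPM was 0.210 (95% interval for counting error 0.0735 to 0.488). Tlr4 did not pass the filter on low counts, and without that filter its log2 fold change was -1.91 (SE 0.59, adjusted p = 0.0179). Over the 6 settings in which Tlr4 entered a fit of this comparison the adjusted p ranged from 0.0114 to 0.0546, and it lay above the threshold without the HA T3 library of animal 3 (0.0531) or of animal 4 (0.0546).

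Both chains of the IL-1 receptor rose. Il1r1 was at 21.3, 45.5 and 22.6 CPM in HA T3, against 10.4 to 12.9 CPM in HA T0 (log2 fold change 1.67, SE 0.32, adjusted p = 0.000439). The library of animal 3 was the highest, and without it the call held. Il1rap was at 36.8, 26.1 and 17.9 CPM in HA T3, against 10.1 to 15.3 CPM in HA T0 (log2 fold change 1.33, SE 0.30, adjusted p = 0.00205). Here animal 1 was highest, so the order of the animals differed between the chains.

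Myd88 was at 73.7, 90.3 and 51.4 CPM in HA T3, against 26.9 to 42.2 CPM in HA T0 (log2 fold change 1.30, SE 0.23, adjusted p = 0.000229). Tnfrsf1a was at 776, 995 and 803 CPM in HA T3, against 451 to 554 CPM in HA T0 (log2 fold change 1.04, SE 0.17, adjusted p = 9.04e-05). Irak1 was at 83.5, 70.2 and 67.0 CPM in HA T3, below the 89.1 to 117 CPM of HA T0 in every library. On TMM scaling its log2 fold change was -0.19 (SE 0.18, adjusted p = 0.441), and with scaling to library totals it was -0.46 with an adjusted p of 0.0579.

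Cell type markers were read in the same comparison. Of 14 glial markers tested in HA T3 against HA T0, 4 were higher (Gfap, Cryab, Sox2 and S100b), 1 was lower (Gpr37l1) and 9 did not pass the test, with a median log2 fold change of 0.32. The ratio of mean CPM between HA T3 and HA T0 was 5.40 for the sum of Cryab and Gfap and 0.796 for that of the other 13 glial markers. It was 1.70 for Tnfrsf1a, 2.04 for Myd88, 2.12 for Il1rap, 2.60 for Il1r1, 3.56 for Tlr2 and 21.2 for Tnfrsf12a. Of 4 markers of interstitial cells of Cajal, Kit, Ano1 and Gja1 were lower (sum of all 4 at 0.466 times HA T0), as were all 6 mesothelial markers tested (sum of all 7 listed at 0.107 times). Of 8 macrophage markers tested, 0 were higher and 3 were lower. The summed CPM of all 15 macrophage markers in HA T3 was 0.499 times that in HA T0. Summed macrophage markers were highest among the HA T3 libraries in animal 3 (701 CPM), which was also the highest HA T3 library for Tlr2, Il1r1, Myd88 and Tnfrsf1a, and summed neutrophil and monocyte markers were highest in animal 1 (116 CPM). The part of these markers in the changes was not tested.

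The same comparison in the IgG libraries measured the background. Of 5 genes tested, Tlr2 and Tnfrsf12a rose, while 4.43% of the 5219 genes tested rose. Tlr2 went from 7.73, 8.57 and 10.1 CPM in IgG T0 to 34.0, 76.1 and 76.5 CPM in IgG T3 (log2 fold change 2.80, SE 0.50, adjusted p = 0.00345), on 3, 7 and 19 counts. Tnfrsf12a went from 139, 115 and 50.4 CPM to 284, 1315 and 700 CPM (log2 fold change 2.93, SE 0.54, adjusted p = 0.00882), on 25, 121 and 174 counts. The groups did not overlap for either gene. They also did not overlap for Tnfrsf1a and Myd88, which did not pass, or for Il1r1 and Il1rap, which were too low for the test. The share of all genes without such overlap was not counted in IgG. Without the IgG T3 library of animal 4, the deepest of the 3, neither call held (adjusted p of 0.110 for Tlr2 and 0.0667 for Tnfrsf12a).

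Tnfrsf1a, at 340, 804 and 370 CPM in IgG T3 against 196 to 243 CPM in IgG T0, had a log2 fold change of 1.10 (SE 0.33, adjusted p = 0.0753). Myd88, at 56.7, 120 and 72.4 CPM against 33.5 to 41.1 CPM, had one of 1.10 (SE 0.41, adjusted p = 0.142). Irak1 was at 68.1, 76.1 and 105 CPM against 77.1 to 95.3 CPM, with overlapping groups and a log2 fold change of 0.01 (SE 0.36, adjusted p = 0.985). Il1r1 was too low for the test at 22.7, 120 and 44.3 CPM, on 2, 11 and 11 counts, against 8.53 to 17.1 CPM in IgG T0. The ratio of its pooled CPM was 4.69 (95% interval for counting error 2.59 to 8.44), and in a fit of all 12 libraries its log2 fold change was 2.11 with an adjusted p of 0.0197. Over the 7 settings in which it could be fitted the log2 fold change was 1.81 to 2.46 and the adjusted p 0.0197 to 0.211, above the threshold in 4, among them the fits without each IgG T0 library. Il1rap, on 4 counts in all of IgG T3, and Tlr4, on 0, were too low to compare. The IgG T3 library of animal 3 was the highest of its group for Il1r1, Myd88, Tnfrsf1a and Tnfrsf12a.

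**Figure D2:**
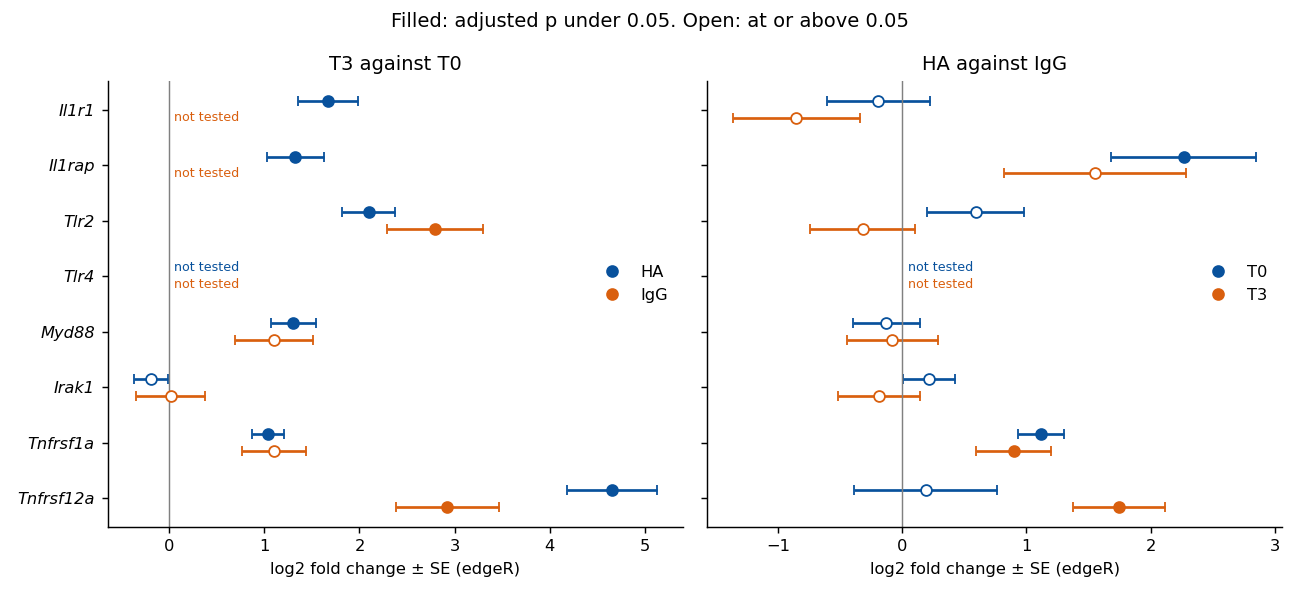
Log2 fold change of each gene with its SE (edgeR), on the left between T3 and T0 in each pull-down and on the right between HA and IgG at each time; filled points passed an adjusted p of 0.05 and genes that failed the filter on low counts are written as not tested. Tnfrsf12a has the largest change with time in HA (4.66) and moves from 0.19 at T0 to 1.74 at T3 between the pull-downs.

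After manipulation, HA T3 was compared with IgG T3. Of 7 genes tested, Tnfrsf12a and Tnfrsf1a were higher in HA, against 11.8% of the 7200 genes tested. For Tnfrsf12a, the 2100, 2502 and 2509 CPM of HA T3 lay above the 284, 1315 and 700 CPM of IgG T3 without overlap (log2 fold change 1.74, SE 0.37, adjusted p = 0.00289), and the call was lost only without the IgG T3 library of animal 4 (adjusted p = 0.0704). For Tnfrsf1a the groups overlapped, since the IgG T3 library of animal 3 (804 CPM) lay within the HA T3 values (776 to 995 CPM). Its log2 fold change was 0.90 (SE 0.30, adjusted p = 0.0409), and the call was lost in 7 of 13 alternatives, among them the DESeq2 Wald test and scaling to library totals, with adjusted p up to 0.186. With the animal as replicate block, which pairs HA and IgG, the call held at 0.96 (SE 0.27, adjusted p = 0.00763).

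Il1rap, which was higher in HA at T0, was at 17.9 to 36.8 CPM in HA T3 and on 2, 1 and 1 counts in IgG T3. Its log2 fold change was 1.55 (SE 0.73, adjusted p = 0.139), and the ratio of pooled CPM was 2.87 (95% interval for counting error 1.09 to 10.7), so a difference was not detectable by the adjusted test at this depth of IgG T3. Il1r1 had a log2 fold change of -0.85 (SE 0.51, adjusted p = 0.251), Tlr2 of -0.32 (SE 0.42, adjusted p = 0.636), Irak1 of -0.19 (SE 0.33, adjusted p = 0.730) and Myd88 of -0.08 (SE 0.37, adjusted p = 0.910), each with overlapping groups. Tlr4 was at or under the floor in every library of both groups.

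Whether HA and IgG differed in their response to manipulation was tested by the interaction of antibody and time over all 12 libraries. Without regard to the animal, 0 of 7 genes passed, as did 0.330% of the 10314 genes tested (34 genes, and 1081 at an unadjusted p under 0.05). Tnfrsf12a had the largest value of the 7, a log2 difference of 1.80 (SE 0.81, adjusted p = 0.475, unadjusted p = 0.0507). HA and IgG libraries of the same number at 1 time came from 1 animal, and their deviations from the group means correlated at 0.22 to 0.39 in all 6 animals. With the animal as a replicate block the log2 difference of Tnfrsf12a was 2.07 (SE 0.36, adjusted p = 0.000184), and it was the 1 gene of 7 that passed, while 1.29% of all genes tested passed with a positive difference. Leaving out each animal in turn, an alternative chosen after seeing the data, kept this call with log2 differences from 1.66 to 2.41 and adjusted p up to 0.00692.

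Within the animals, the HA to IgG ratio of Tnfrsf12a was 1.12, 1.14 and 0.995 at T0 and 7.40, 1.90 and 3.58 at T3, so each T3 ratio lay above each T0 ratio. The highest ratio was that of animal 1, with 25 counts in its IgG library, and the lowest T3 ratio that of animal 3. The ratio of Tnfrsf1a was 2.30, 2.10 and 2.28 at T0 and 2.28, 1.24 and 2.17 at T3, which overlapped. In the animals with more than 3 IgG counts, the ratios of Tlr2 were 1.50 and 1.56 at T0, against 0.923 and 0.428 at T3. Those of Il1r1 were 0.671, 0.750 and 1.31 at T0, against 0.380 and 0.510 at T3. For both, the T3 ratios lay below the T0 ratios, but the blocked interaction did not pass (adjusted p of 0.676 for Tlr2 and 0.837 for Il1r1). Summed glial markers in HA were 5.99 times those in IgG at T0 and 5.87 times at T3, and without Cryab and Gfap 14.8 and 3.89 times.

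**Figure D3:**
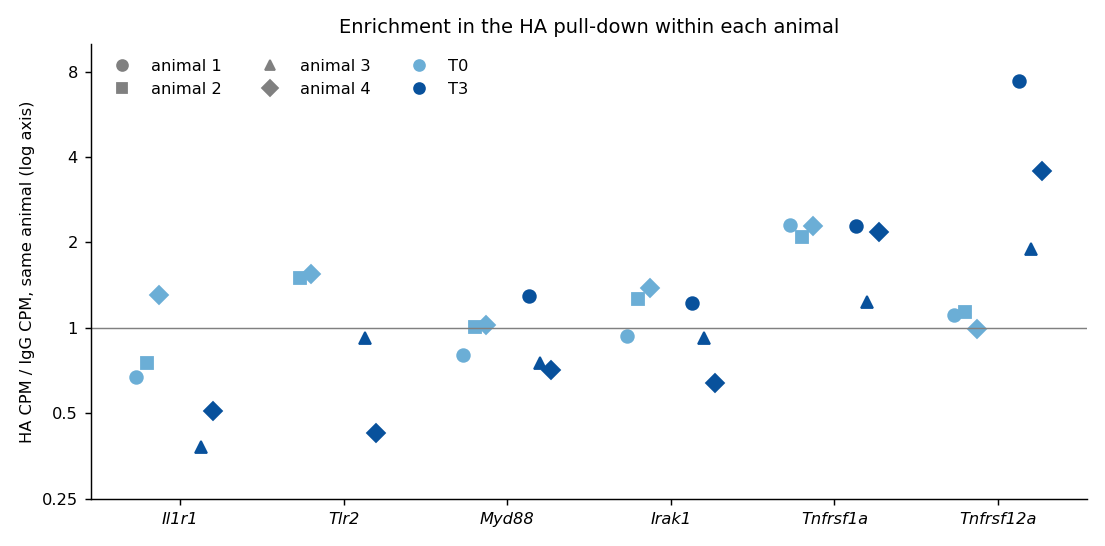
Ratio of HA CPM to IgG CPM within each animal, on a log axis, for 6 genes at T0 and T3; each point is 1 animal, libraries with at most 3 IgG counts are left out, and shapes give the animal number, which names different animals at T0 and T3. Tnfrsf12a lies near 1 at T0 and between 1.90 and 7.40 at T3, whereas Tnfrsf1a lies above 2 in all animals except animal 3 at T3 (1.24).

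By order of mean level over the 4 groups, Tnfrsf12a followed HA T3 (2370 ± 234 CPM, SD, n = 3), IgG T3 (766 ± 519), HA T0 (112 ± 54.9) and IgG T0 (101 ± 45.8), and the last pair did not differ beyond their spread. Tnfrsf1a followed HA T3 (858 ± 119), IgG T3 (505 ± 260), HA T0 (504 ± 51.7) and IgG T0 (227 ± 26.8), where the middle pair did not differ beyond their spread. Tlr2, Il1r1 and Myd88 had their highest mean in IgG T3, at 62.2 ± 24.4, 62.2 ± 50.8 and 82.9 ± 32.7 CPM, which overlapped in each gene with HA T3, at 49.9 ± 19.0, 29.8 ± 13.6 and 71.8 ± 19.5 CPM. Il1rap had its highest mean in HA T3 (26.9 ± 9.49), followed by HA T0 (12.7 ± 2.64).

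The pattern of each gene over the 12 libraries was compared with those of 8801 genes as Pearson correlation of log2 CPM, given as a description because the libraries share animals, groups and depth. Among the genes most like Tnfrsf12a were Sertad1 (r = 0.975) and Maff (0.972), a small Maf transcription factor. In HA T3 against HA T0 these had log2 fold changes of 3.23 and 5.69. Tlr2 was most like Bcl3 (0.967), an NF-kB cofactor, Socs3 (0.959), a feedback inhibitor of cytokine receptors, and Pvr (0.959), and Bcl3 was also among the 3 genes most like Myd88, beside Sema4c (0.942) and Dennd3 (0.940). Among the 7 genes themselves Tlr2 and Myd88 were closest (r = 0.930), followed by Il1r1 and Myd88 (0.881).

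Il1r1 was most like Slc11a2 (0.972), an iron transporter, Arhgap17 (0.952) and Numbl (0.947). Il1rap was most like Mpzl2 (0.957), Ptk2 (0.949), which encodes focal adhesion kinase, and C330006A16Rik (0.941), and the correlation between Il1r1 and its co-receptor gene was 0.239. Tnfrsf1a was most like Fndc4 (0.971), which was also enriched in HA T0 over IgG T0 (log2 fold change 2.02, adjusted p = 0.000447). Irak1 had its closest genes at lower values, with Echdc1 at 0.909.

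Other genes of the same pathways were read from lists of ligands, antagonists and decoys, receptors, adaptors and kinases, and NF-kB response genes. These lists were chosen with earlier results of these data known. Over all genes tested, 18.7% rose and 15.1% fell in HA T3 against HA T0, with a median log2 fold change of -0.02. In HA T0 against IgG T0, 16.0% were higher and 14.4% were lower. For these lists the test of change with time was read in HA only, and IgG is given as mean CPM. Of 25 ligands 14 were in the table and 5 were tested in HA T3 against HA T0, with 2 higher and 1 lower. Tnfsf12, which encodes TWEAK, the ligand of Fn14, fell by 0.89 in log2 units (SE 0.17, adjusted p = 0.000488), from a mean of 375 CPM in HA T0 (351 to 411) to 168 CPM in HA T3 (157 to 185), while its receptor gene rose. Tnfsf12 was also enriched in HA T0 over IgG T0 (log2 fold change 0.66, SE 0.18, adjusted p = 0.0139). Tnfsf9 rose by 1.98 (adjusted p = 0.00174) and S100a9, a TLR4 ligand made mainly by neutrophils and monocytes and also in the marker list of these cells, by 6.11 (adjusted p = 0.0170). From IgG T0 to IgG T3 mean CPM went from 234 to 238 for Tnfsf12, 0.258 to 0 for Tnfsf9 and 0 to 64.0 for S100a9. These IgG T3 means rested on 91, 0 and 26 counts. Tnf was on 1 count over the 3 HA T0 libraries and 0 in HA T3, and Il1b on 6 and 23 counts.

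Among the 21 other receptors of the TNF family, 7 were tested, 3 rose and 1 fell. Relt, a lymphoid-associated member of the family, rose by 4.86 (SE 0.42, adjusted p = 2.03e-08) from 9 counts over HA T0 to 129 over HA T3. Fas, the death receptor, rose by 1.84 (adjusted p = 0.00100) and Ngfr, the p75 neurotrophin receptor, by 1.38 (adjusted p = 7.01e-06), and Tnfrsf19 fell by 0.93 (adjusted p = 0.0153). In IgG, mean CPM went from 3.09 to 28.5 for Relt, 11.1 to 44.7 for Fas, 117.7 to 175.5 for Ngfr and 18.7 to 11.4 for Tnfrsf19. The IgG T3 means rested on 9, 23, 81 and 5 counts. Ngfr was enriched in HA T0 over IgG T0 (log2 fold change 2.12, adjusted p = 7.08e-06), and Tnfrsf11a was lower (adjusted p = 0.0431). The median log2 fold change of the 7 tested in HA T3 against HA T0 was 0.82.

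Of 17 other TLR and co-receptor genes 5 were tested and 1 rose. Cd14, the co-receptor for lipopolysaccharide that also serves TLR2, rose by 2.41 (SE 0.31, adjusted p = 4.29e-06), from 6.27 to 11.9 CPM in HA T0 to 31.9 to 51.5 CPM in HA T3. Its mean in IgG went from 14.0 CPM at T0 to 32.9 CPM at T3, on 14 counts in IgG T3. Lbp, the lipopolysaccharide-binding protein, was enriched in HA T0 over IgG T0 (log2 fold change 2.13, adjusted p = 0.00269). Of the antagonists and decoys, Tnfrsf11b, the decoy receptor osteoprotegerin, was the 1 of 2 tested that changed and fell by 0.94 (adjusted p = 0.0260). It was also lower in HA T0 than in IgG T0 (log2 fold change -1.35, adjusted p = 0.00422). The mean of Tnfrsf11b in IgG went from 77.7 CPM at T0 to 53.2 CPM at T3, on 24 counts in IgG T3. Of 6 other receptors of the IL-1 family 1 was in the table, Il18r1, and it was too low for the test.

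Of 38 other adaptors and kinases 27 were tested, 9 rose and 1 fell, with a median log2 fold change of 0.26. Over all genes tested 18.7% rose and 15.1% fell, with a median of -0.02. Birc3 rose by 3.09 (SE 0.28, adjusted p = 3.20e-08), Map3k8 by 3.42 (SE 0.40, adjusted p = 1.26e-06), Birc2 by 1.80 (SE 0.27, adjusted p = 3.42e-05) and Tollip by 0.93 (SE 0.19, adjusted p = 0.000977). Their mean CPM was also higher in IgG T3 than in IgG T0. It went from 4.67 to 79.9 for Birc3, 7.34 to 55.5 for Map3k8, 21.0 to 50.9 for Birc2 and 55.9 to 118 for Tollip. The IgG T3 means rested on 33, 25, 24 and 46 counts. Birc2 and Birc3 encode the cIAP ubiquitin ligases that work with TRAF2 at TNF receptors, Map3k8 a MAP kinase kinase kinase of TLR and TNF receptor signalling, and Tollip an inhibitor of Irak1 signalling. Tollip was also enriched in HA T0 over IgG T0 (log2 fold change 0.94, adjusted p = 0.00599). Of 26 genes of this list tested between HA T0 and IgG T0, 3 were higher and 3 were lower in HA, beside 16.0% and 14.4% of all genes tested.

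Of 16 NF-kB response genes 14 were tested, 13 rose and 0 fell, with a median log2 fold change of 2.97. Nfkbia, which encodes the inhibitor IkB-alpha, rose by 4.76 (adjusted p = 1.43e-12), Nfkbiz by 3.30 (adjusted p = 6.95e-09), Icam1 by 3.39 (adjusted p = 7.16e-09) and Nfkb2 by 2.48 (adjusted p = 1.36e-08). Mean CPM of each of these genes was also higher in IgG T3 than in IgG T0. It went from 175 to 2246 for Nfkbia, 38.85 to 103 for Nfkbiz, 9.58 to 131 for Icam1 and 120 to 803 for Nfkb2. The IgG T3 means rested on 928, 43, 49 and 325 counts. In HA against IgG at T0, 11 genes of this list were tested, 2 higher and 3 lower in HA, and Nfkbiz was at a log2 fold change of -2.22 (adjusted p = 0.000285).

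**Figure D4:**
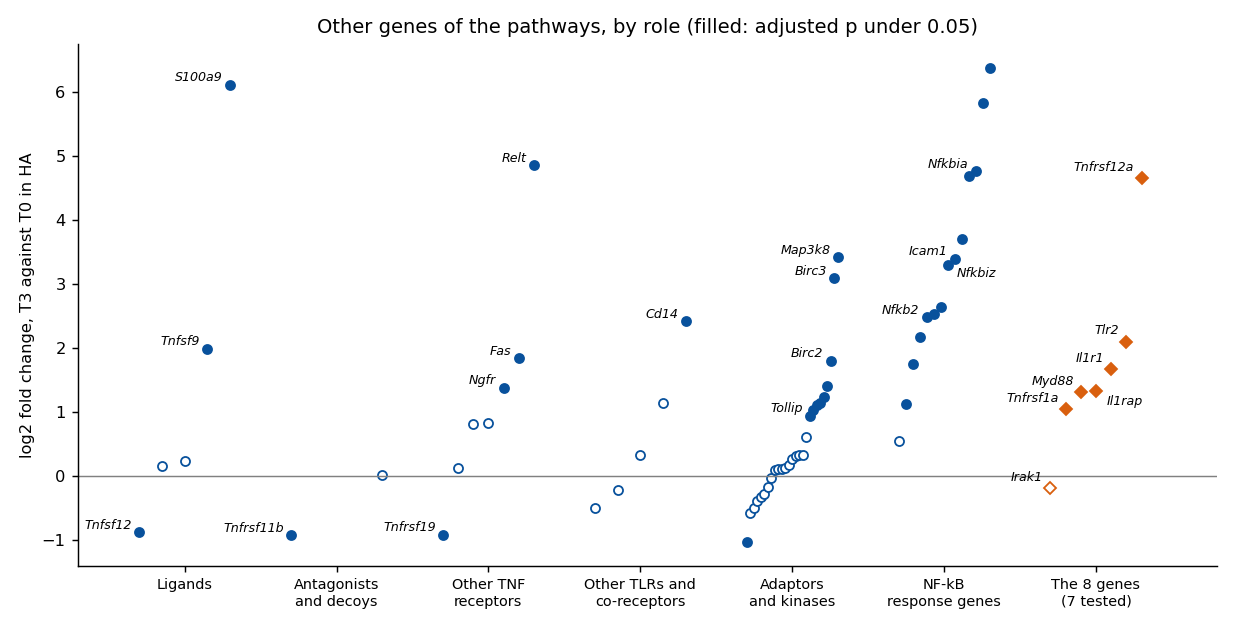
Log2 fold change of T3 against T0 in the HA pull-down for each tested gene of the pathway lists, grouped by role (circles), and for the 7 genes tested of the 8 (diamonds); filled points passed an adjusted p of 0.05, and up to 4 genes a list with the smallest p are named. In the NF-kB response list 13 of 14 tested genes rose, whereas Tnfsf12, the gene of the Fn14 ligand, lies at -0.89.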

How the data were processed

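The deposited files give raw UMI counts for each gene. Per the labels and their processing notes, the authors used cutadapt for trimming and STAR 2.4.2a for mapping to mm10, kept uniquely mapped reads and counted UMIs with HTSeq from 1000 bases upstream to 100 bases downstream of annotated 3′ ends, after a bulk MARS-seq preparation in pools of up to 8 samples whose membership was not stated. Unique mapping lowers counts of genes with near-identical copies. The authors normalised with DESeq2 1.26.0, and those values were not used here. The series table and the single-sample files held the same counts.

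The test was that of edgeR 4.0.16 under R 4.3.3 (quasi-likelihood F-test, robust, TMM, filterByExpr), p-values were adjusted by Benjamini-Hochberg over all genes of a comparison, and SE came from the F statistic. Comparisons of 2 groups used 6 libraries and the interaction all 12. P-values measure the spread between 3 animals a group. The main HA against IgG tests and the interaction without a block treat the HA and IgG libraries of an animal as independent. The replicate block pairs them. Intervals of pooled ratios are exact 95% intervals for counting error only. Correlations used TMM-scaled log2 CPM (prior count 2) over genes with at least 120 counts in all. Scripts were tested on simulated data.

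Alternatives were RLE and total-count scaling, no filter, a filter of 5 counts in 1 library, DESeq2 1.42.0, 1 fit of the 12 libraries, the replicate block, and each library left out. HA and IgG libraries of 1 animal came from 1 homogenate, and deviations of same-animal pairs from group means correlated at 0.22 to 0.392 over 2704 genes, against -0.215 to -0.019 for other pairs, so the numbers pair the samples within a time. Numbers shared by T0 and T3 name different animals. Named genes were the 8 members, up to 4 genes a pathway list with the smallest p in T3 against T0 in HA past the threshold, and the 3 genes most correlated with each member, of which 1 is not reported here; Il1b, Tnf, Lbp, Tnfrsf11a and Il18r1 were added after their values were seen. The 8 genes and the lists were chosen with earlier results of these data known.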

Additional observations from a re-analysis of the deposited data

Results flagged for a closer look

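The change of Tnfrsf12a with time differed between the HA and IgG pull-downs in the test of the interaction with the animal as replicate block, with a log2 difference of 2.07 (SE 0.36, adjusted p = 0.000184). Without the block the difference was 1.80 and did not pass (adjusted p = 0.475). The HA to IgG ratio was higher in each of the 3 T3 animals than in each of the 3 T0 animals, and the IgG T3 values rested on 25, 121 and 174 counts.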

How the results depend on the processing

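The 6 rises in T3 against T0 in HA and the 2 differences of HA against IgG at T0 held in all 13 alternatives each. For the rises the 13 included a fit with the shared number as replicate block, although those numbers name different animals. Of HA against IgG at T3, 1 of the 2 calls was left with total-count scaling or DESeq2, and 0 to 2 without single libraries. Both of these calls held with the animal as replicate block. Of T3 against T0 in IgG, 4 genes were called in the fit of all 12 libraries, 0 to 4 without single libraries and 1 with the shared number as replicate block, which lost Tnfrsf12a (adjusted p = 0.188), although those numbers name different animals. With the animal as replicate block, 1 gene was called in the interaction, also without each animal, and the block changed no other call. Over all genes, calls in the interaction went from 34 to 158 with the replicate block, 83 with DESeq2, 20 with RLE, 8 with total counts and 5 to 95 without single libraries, those in T3 against T0 in IgG from 285 to 519 without a filter, 705 in the fit of all 12 and 162 to 334 without single libraries, and those in HA against IgG at T3 from 1578 to between 849 and 1977 without single libraries.

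The other changes of direction were of values that did not pass the test, in log2 units. Not all of these lay near 0. The main interaction was -0.44 (SE 0.66) for Il1r1 and -0.45 (SE 0.98) for Il1rap. In HA against IgG at T3, Myd88 went to 0.16 without a filter, 0.098 with the filter of 5 counts and 0.19 in the fit of 12, and Irak1 to 0.049 without a filter and 0.087 in the fit of 12. In T3 against T0 in IgG, Irak1 went to -0.094, -0.060 and -0.034 under these 3 settings. In the interaction, Myd88 went to -0.072 with total counts, Tnfrsf1a to -0.13 with RLE, -0.35 with total counts and -0.12 with DESeq2, and with the replicate block Myd88 went to -0.0098 and Tnfrsf1a to -0.054 without T3 animal 1, and Irak1 to 0.31 without T3 animal 4. Without single libraries, HA against IgG at T0 ranged from -0.53 to 0.059 for Il1r1, -0.24 to 0.019 for Myd88 and -0.17 to 0.58 for Tnfrsf12a, HA against IgG at T3 from -0.35 to 0.24 for Myd88, -0.29 to 0.29 for Irak1 and -0.72 to 0.13 for Tlr2, T3 against T0 in IgG from -0.35 to 0.13 for Irak1, and the interaction from -0.94 to 0.10 for Il1r1, -1.75 to 0.18 for Il1rap, -0.30 to 0.19 for Irak1 and -0.16 to 0.42 for Tnfrsf1a. Fits without 1 library of a group rest that group on 2 libraries, and the IgG T3 depth (88136 to 248522 counts) limits every comparison that uses it.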
